A study of Rattus norvegicus with 30 samples.

Results

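Exons of the rat genome were chosen by their summed MBD-seq count over 10 libraries, which had to reach 100 in the ipsilateral hippocampus and in the ipsilateral thalamus and stay under 100 in the perilesional cortex. The rule was met by 1172 exon identifiers, of which 67 repeated the counts of another in every library, so that 1105 member exons remained, 0.541% of the 216689 distinct identifiers. The data came from adult male Sprague-Dawley rats, 5 sham-operated (rats 1 to 5) and 5 with TBI (rats 6 to 10), with 1 library from each of the 3 tissues of every rat. TBI was a lateral fluid percussion impact on the left side, sham rats had the anaesthesia and the surgery without the impact, and tissue was taken 3 months later. The hippocampal tissue was described by the labels as dentate gyrus with adjoining CA3, whereas the paper's methods name the ipsilateral hippocampus with the dentate gyrus included. How much of the hippocampus it held is not settled here. All tissues held mixed cells, and a change in cell composition and a change within cells cannot be told apart in these libraries.

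MBD-seq pulls down sheared DNA with the methyl-binding domain of a protein that recognises methylated CpG dinucleotides, and reads what was pulled down. Exons lie within gene bodies, which are commonly methylated in mammalian neurons and glia, whereas CpG-rich promoters mostly are not. A count therefore rises with methylation, with the number of CpG sites and with the length of the exon, and it is not a percentage of methylation. Levels are given below as counts per 1000000 counts of the exon table (CPM, the exon scale) or per 1000000 counts of the promoter table of the same library (the promoter scale). Levels of different exons were not compared per length, because exon lengths were not in the tables used here. The tables gave Ensembl exon identifiers, which could not be paired with gene symbols, positions or sequence, and none are given.

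The summed counts placed the member exons close to the limits of the rule. Hippocampal sums ranged from 100 to 245 (median 122), thalamic sums from 100 to 652 (median 111) and cortical sums from 28 to 99 (median 60). No member was without signal in the cortex, and 610 of the 1105 members had at least 1 count in each of the 10 cortex libraries, against 1084 in the hippocampus and 1098 in the thalamus. Just inside the rule lay ENSRNOE00000504161, with sums of 53 in the cortex and 100 in both the hippocampus and the thalamus. ENSRNOE00000461762, with 58, 99 and 204, and ENSRNOE00000011406, with 53, 130 and 99, lay just outside it. On the cortex side, ENSRNOE00000287780 was a member with 99, 206 and 154, and ENSRNOE00000339063 was not with 100, 175 and 114.

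The thresholds were counts, and the depth of the tables differed between the tissues. The exon counts of the 10 libraries summed to 3249463 for the cortex, 4009002 for the hippocampus and 7197468 for the thalamus. Single cortex libraries held 232485 to 484228 counts, hippocampus libraries 295581 to 511369 and thalamus libraries 564998 to 996028. When the hippocampus and thalamus sums were scaled down to the cortex exon total, 12 of the 1105 members still met the rule. With scaling to the cortex promoter total, 143 exons met it, 110 of them members. A median member had 4.5 counts in the median cortex library, 13 in the hippocampus and 10 in the thalamus.

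On the exon scale, most member exons had their highest level in the hippocampus, and the cortex was not without capture. The median member stood at 17.0 CPM in the cortex, at 29.8 CPM in hippocampus and at 14.97 CPM in thalamus libraries. The hippocampus was the highest tissue in 1086 members, the thalamus in 16 and the cortex in 3. The median log2 ratio of cortex to hippocampus was −0.86, a hippocampal level 1.82-fold that of the cortex, and 1101 members had the lower level in the cortex. Against the thalamus the median log2 ratio was 0.12, with the lower level in the cortex in 408 members (36.9%). These ratios were part of the choice of the exons and were not tested.

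The relation of cortex to thalamus turned with the scale, whereas that of cortex to hippocampus did not. On the promoter scale, the median log2 ratio was −1.20 against the hippocampus, with all 1105 members lower in the cortex, and −0.31 against the thalamus, with 920 members lower in the cortex. The promoter table took up relatively more of the cortex libraries: exon counts were 5.92% to 22.0% of promoter counts for cortex libraries, 15.8% to 24.2% for hippocampus and 18.5% to 26.4% for thalamus libraries. Over the 4838 exons with 100 or more counts in any tissue, the median log2 ratio on the exon scale was −0.72 for cortex to hippocampus and 0.08 for cortex to thalamus, near the values of the members. Over all exons with a count it was 0.43 and −0.01. The 4838 exons include the members and were chosen by the same counts.

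**Figure D1:**
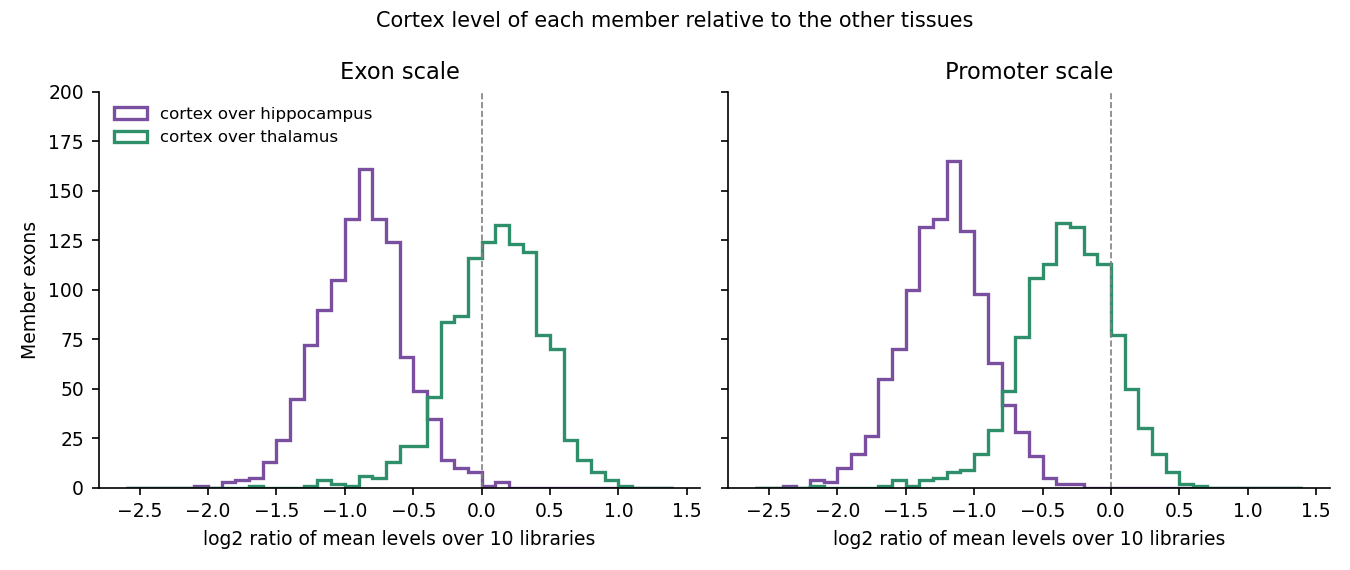
Histograms of the log2 ratio of the mean cortex level to the mean hippocampus level (purple) and to the mean thalamus level (green) for the 1105 member exons, per 1000000 exon counts on the left and per 1000000 promoter counts on the right, with the number of exons on the y axis. The ratio to the hippocampus lies below 0 on both scales, with medians of −0.86 and −1.20, while the ratio to the thalamus moves across 0, from a median of 0.12 to −0.31.

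The level summed over the members differed between libraries of the same tissue by more than between the groups. In the sham cortex, rats 1, 2, 3 and 5 gave 12427, 20786, 19544 and 17252 CPM, and rat 4 gave 35359 CPM. In the TBI cortex, rats 7, 8, 9 and 10 gave 17522, 15275, 15768 and 7847 CPM, and rat 6 gave 30903 CPM. Cortex rats 4 and 6 thus reached the range of the hippocampus, where rats 1 to 4 gave 39930, 30892, 38775 and 42269 CPM and rats 6 to 10 gave 34202, 39582, 36154, 34938 and 32826 CPM. Hippocampus rat 5, at 19370 CPM, lay within the range of the cortex. In the thalamus, the sham libraries lay between 15600 and 20337 CPM, and the TBI libraries were at 14248, 16900, 17674 and 15930 CPM in rats 7 to 10 and at 26892 CPM in rat 6.

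**Figure D2:**
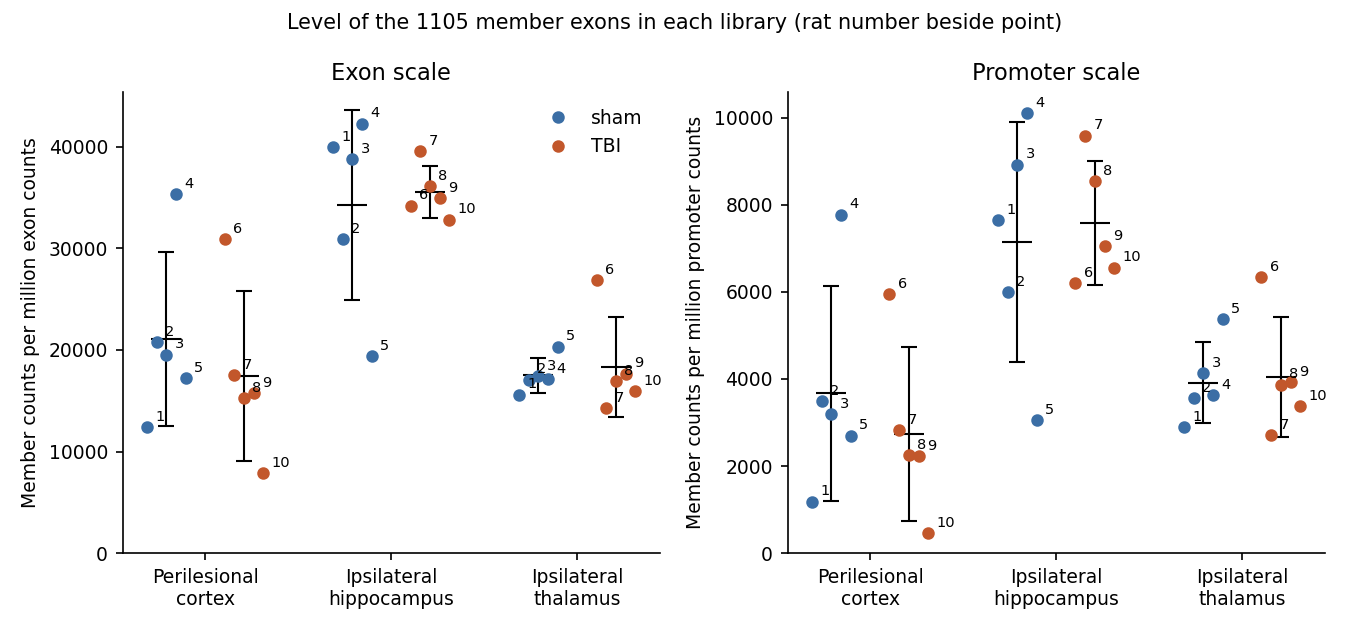
Summed counts of the 1105 member exons in each of the 30 libraries, per 1000000 exon counts on the left and per 1000000 promoter counts on the right. Blue points are sham-operated rats and orange points TBI rats with the rat number beside each, horizontal marks are group means and bars are 1 SD (n = 5 libraries). Cortex rats 4 and 6 stand at 35359 and 30903 CPM near the hippocampus, and hippocampus rat 5 stands at 19370 CPM near the cortex.

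The same libraries stood apart in exons that were not members. Over the covered exons outside the rule, the correlation of log2(CPM + 1) across exons was 0.85 between cortex rat 4 and the mean of the hippocampus libraries and 0.57 with the other cortex libraries. For cortex rat 6 it was 0.82 and 0.51. Hippocampus rat 5 had 0.72 with the cortex mean and 0.46 with the other hippocampus libraries. Thalamus rat 6 had 0.62 with the hippocampus and 0.63 with the thalamus. Libraries share depth and base composition across exons, and these values are descriptions. The library labelled cortex of rat 4 held the highest cortex level of 520 members and that of rat 6 of 306 members. The lowest hippocampus level was in rat 5 for 573 members, and the highest thalamus level in rat 6 for 560 members. In cortex rat 10, 282 members (25.5%) had no count.

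These libraries bore on the levels and on which exons were chosen. Without cortex rats 4 and 6 and hippocampus rat 5, the median log2 ratio of cortex to hippocampus was −1.25 and that of cortex to thalamus −0.20, against −0.86 and 0.12 with all libraries. The mean of the summed member level was then 15802 ± 4121 CPM (SD, n = 8) in the cortex and 36619 ± 3748 CPM (SD, n = 9) in the hippocampus, against 19268 ± 8227 CPM and 34894 ± 6499 CPM (SD, n = 10 each). The thalamus had 17925 ± 3524 CPM (SD, n = 10), and 16928 ± 1675 CPM (SD, n = 9) without rat 6. When the choice was repeated without those 3 libraries, 1359 exons were chosen, 1102 of them members. Without rat 6 in any tissue 590 exons were chosen, 514 of them members. The count limits used with fewer libraries are not given here.

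Exons chosen in 1 group of rats kept the hippocampus above the cortex in the other group. Over the 4838 exons with 100 or more counts in any tissue, the median log2 ratio of cortex to hippocampus was also below 0, at −0.72. Those exons include the members and were chosen by the same counts, and over all exons with a count the median was 0.43. Whether the order is particular to the chosen exons was not tested. With a threshold of 50 counts over the 5 sham libraries of each tissue, 531 exons were chosen. In the TBI rats, which had no part in that choice, their summed level was 16666 ± 1147 CPM in the hippocampus, 8628 ± 4049 CPM in the cortex and 8843 ± 2249 CPM in the thalamus (SD, n = 5 each). The hippocampus was above the cortex in 5 of 5 rats and the thalamus in 3 of 5. With the same choice made in the TBI libraries, 1985 exons were chosen, and in the sham rats they had 55811 ± 14789 CPM in the hippocampus, 36161 ± 14312 CPM in the cortex and 28134 ± 2857 CPM in the thalamus. There the hippocampus was above the cortex in 5 of 5 rats and the thalamus in 2 of 5. On the promoter scale, the hippocampus was again above the cortex in 5 of 5 rats of either group, and the thalamus in 4 of 5 TBI and 3 of 5 sham rats. The cortex of TBI rat 6 (15032 CPM), the cortex of sham rat 4 (59594 CPM) and the hippocampus of sham rat 5 (32484 CPM) again lay away from the rest of their groups.

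**Figure D3:**
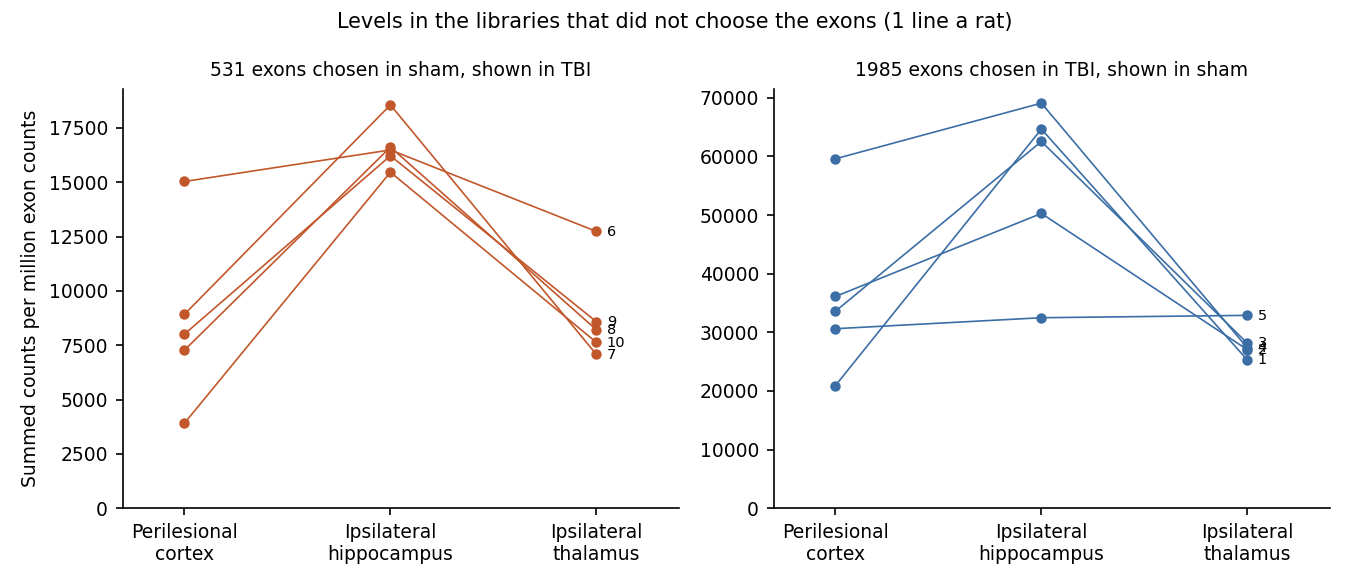
Summed level of exons in the libraries that had no part in choosing them, with 1 line for each rat across perilesional cortex, ipsilateral hippocampus and ipsilateral thalamus, in counts per 1000000 exon counts. On the left 531 exons chosen in sham are shown in TBI rats and on the right 1985 exons chosen in TBI are shown in sham rats, and in both panels all 5 lines rise from cortex to hippocampus, while the thalamus lies above the cortex in 3 and in 2 rats.

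Of the 6 members with the highest levels, 4 had their highest level in the thalamus, as 16 of all 1105 members did on the exon scale. ENSRNOE00000484291 had the highest mean level over the hippocampus and thalamus libraries. In the thalamus it had 42, 52, 70, 60 and 92 counts in sham rats 1 to 5 and 105, 52, 64, 67 and 48 counts in TBI rats 6 to 10. This was 89.9 CPM on average, against 54.3 CPM in the hippocampus and 28.2 CPM in the cortex, and every thalamus library was above 63 CPM while the highest cortex library was at 43.4 CPM. The counts of this exon were equal in all 30 libraries to those of the gene body ENSRNOG00000048763. The sham and TBI libraries overlapped in each tissue.

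ENSRNOE00000464672 and ENSRNOE00000458231 were the other members with the highest ratio of thalamus to hippocampus, with log2 ratios of 0.83 and 0.79, against 0.73 for ENSRNOE00000484291. ENSRNOE00000464672 had 52.6 CPM in the thalamus, 29.7 CPM in the hippocampus and 23.4 CPM in the cortex, and ENSRNOE00000458231 had 50.2, 29.1 and 22.5 CPM. ENSRNOE00000356899, tied by equal counts to ENSRNOG00000038322, had near levels in the thalamus (45.0 CPM) and the hippocampus (40.2 CPM). ENSRNOE00000229519 had 49.0 CPM in the thalamus and 32.8 CPM in the hippocampus. ENSRNOE00000357014 and ENSRNOE00000464657 were highest in the hippocampus, like most members, at 53.8 and 56.9 CPM in the hippocampus and 32.1 and 25.4 CPM in the thalamus.

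At the other end of that ratio were ENSRNOE00000214100, ENSRNOE00000465970 and ENSRNOE00000465536. Their log2 ratios of thalamus to hippocampus were −1.93, −1.90 and −1.89. ENSRNOE00000214100 had 19, 8, 43, 43 and 8 hippocampus counts in sham rats 1 to 5 and 15, 16, 31, 36 and 26 in TBI rats 6 to 10. In the thalamus it had 8, 5, 14, 8 and 10 counts in sham and 28, 7, 8, 6 and 20 in TBI. The lowest sham counts in the hippocampus were in rats 2 and 5, and the groups overlapped in both tissues.

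The smallest ratios of cortex to the mean of the other tissues were those of ENSRNOE00000012505, ENSRNOE00000473192 and ENSRNOE00000446532, with log2 values of −1.60, −1.48 and −1.47. The cortex counts of ENSRNOE00000473192 were 0, 5, 3, 10 and 0 in sham rats 1 to 5 and 8, 0, 0, 4 and 1 in TBI rats 6 to 10. Its highest cortex counts were in rats 4 and 6, whose libraries resembled the hippocampus. Its levels were 8.12 CPM in the cortex, 29.1 CPM in the hippocampus and 16.3 CPM in the thalamus. The largest ratios were 0.33 for ENSRNOE00000497765, 0.29 for ENSRNOE00000406774 and 0.29 for ENSRNOE00000465629. ENSRNOE00000497765 had 25.8 CPM in the cortex, 25.9 CPM in hippocampus and 15.1 CPM in thalamus libraries, and its summed counts were 86, 107 and 113 in that order.

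**Figure D4:**
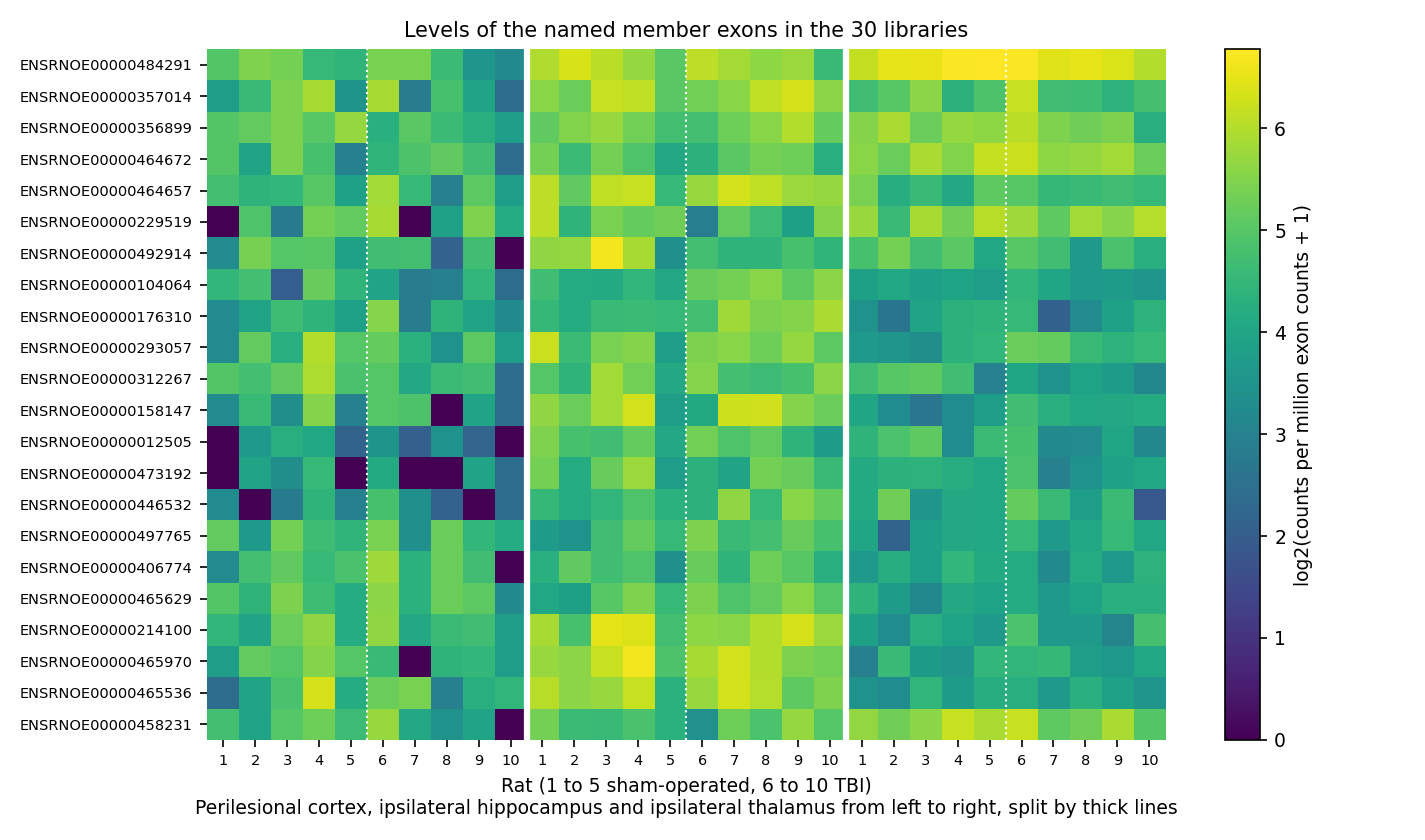
Level of the 22 named member exons in the 30 libraries as colour, log2(counts per 1000000 exon counts + 1), with the cortex, hippocampus and thalamus in blocks from left to right and the sham and TBI rats of each block split by a dotted line. ENSRNOE00000484291 in the top row is highest in the thalamus block, most other rows are highest in the hippocampus block, and the darkest cells, with no count, are all in the cortex block.

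Most members could not be tied to a gene. For 183 of them (16.6%), a gene body had the same counts in all 30 libraries, exactly 1 gene body for 170 members. This share was 47.5% for the 379 exons with 100 or more counts in all 3 tissues, 17.1% for the 1843 that passed in the thalamus alone and 9.38% for the 1386 that passed in the hippocampus alone. Promoter windows, which reach from 5000 bp upstream to 200 bp downstream of a gene start, were listed for 95 of the 170 genes. On the promoter scale, their median log2 ratio was −0.48 for cortex to hippocampus, with 89 of 95 lower in the cortex, and −0.02 for cortex to thalamus, with 53 lower in the cortex. Over all 20184 promoters the medians were 0.37 and 0.02, with 29.2% and 47.1% lower in the cortex. That comparison was not made at like level. The median levels of all promoters were 29.4, 22.1 and 30.1 CPM of promoter counts in the cortex, hippocampus and thalamus. Those of the 95 promoters were higher, at 65.4, 88.2 and 70.1 CPM. Whether the lower cortex level is particular to the 95 promoters was not tested. A promoter window can share fragments with the first exon of its gene, so these promoters are not an independent readout of the member exons. Summed over the 95 genes, the promoter level of hippocampus rat 5 (7826 CPM of promoter counts) and of cortex rat 4 (11418 CPM) again lay in the range of the other tissue.

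Some exon rows had equal or near counts. Of the 1105 members, 53 stood for several identifiers with the same counts, and 110 (9.95%) were listed in more than 1 row, against 10.7% of all distinct exons. There were 21 members whose counts differed by less than 10% from those of another member, and 64 by less than 20%.

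TBI was compared with sham in each tissue with the quasi-likelihood test of edgeR over the whole exon table. In the hippocampus, 1003 of the 1105 members passed the filter on low counts, and 0 had a Benjamini-Hochberg adjusted p under 0.05, as had 0% of the 2946 distinct exons tested. DESeq2 and limma voom also called 0 members. Without adjustment, 38 members had p under 0.05 which is 3.79% against 3.84% of all exons tested. Of these, 22 were higher in TBI, against 2% of all exons, and 16 were lower, against 1.83%. The median log2 fold change of the members was 0.01, that of all exons −0.002, and 90% of the members lay between −0.50 and 0.50 with a median SE of 0.31. The TBI and sham levels of 8 members did not overlap (0.798%, against 0.509% of all exons tested). The filter needed 5 libraries at its level, which the 8 members reached in all 5 TBI libraries and in 0 to 4 sham libraries. All 8 thus passed only with the TBI libraries, 3 of them with no sham library at that level. Their lack of overlap is a description. All 8 were higher in TBI, and the direction was not counted over all exons tested. Sham rat 5 was the lowest hippocampus library for 573 members, and its part in this direction was not tested.

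ENSRNOE00000492914 had the smallest p in the hippocampus. The sham libraries of rats 1 to 5 had 49.5, 50.7, 100.4, 58.7 and 9.6 CPM, and the TBI libraries of rats 6 to 10 had 26.0, 20.2, 20.1, 26.7 and 20.5 CPM. The sham libraries of rats 1 to 4 were thus above all TBI libraries, while sham rat 5, whose hippocampus library resembled the cortex, was below them. The log2 fold change was −1.29 (SE 0.318) with an adjusted p of 0.301 in edgeR. Without sham rat 5 it was −1.45 (SE 0.298) with an adjusted p of 0.0111, 1 of 5 calls among 5899 distinct exons. Without sham rat 3 or sham rat 4 it did not pass the filter. In the thalamus the log2 fold change of this exon was −0.29 (SE 0.327, adjusted p 0.997 in edgeR).

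ENSRNOE00000104064 and ENSRNOE00000176310 followed, with levels in every TBI hippocampus library above those of every sham library. Both reached the level of the filter (25.2 CPM, that is 10 counts in the median library, needed in 5 libraries) in the 5 TBI libraries and in 0 sham libraries. They thus entered the test through the TBI group alone, and their lack of overlap is a description. ENSRNOE00000104064 had 24.7, 16.9, 16.7, 21.5 and 16.0 CPM in sham rats 1 to 5 and 35.7, 40.4, 46.2, 33.4 and 47.2 CPM in TBI rats 6 to 10, a log2 fold change of 1.06 (SE 0.291, adjusted p 0.563 in edgeR). ENSRNOE00000176310 had 21.6, 16.9, 23.0, 23.5 and 22.4 CPM in sham and 26.0, 54.8, 42.2, 44.6 and 59.5 CPM in TBI, a log2 fold change of 1.05 (SE 0.300, adjusted p 0.715 in edgeR). Neither passed the threshold. In the cortex the levels of ENSRNOE00000104064 were 21.4 ± 11.9 CPM in sham and 10.7 ± 7.22 CPM in TBI (SD, n = 5 each), with 1 to 16 counts in a library.

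In the thalamus, 889 members were tested and 0 had an adjusted p under 0.05 in edgeR, as had 0% of the 3870 distinct exons tested, and DESeq2 and limma voom called 0 as well. Without adjustment, 34 members had p under 0.05, which is 3.82% against 2.71% of all exons. Of these, 26 were higher in TBI (2.92%, against 1.37% of all exons) and 8 were lower (0.900%, against 1.34%). The direction moved with 1 library. Without TBI rat 6, 33 of 792 tested members had p under 0.05, 11 higher and 22 lower (4.17%, against 3.95% of all exons, of which 92 were higher and 55 lower), and the median log2 fold change was −0.02, against 0.04 with all libraries. The levels of 3 members did not overlap between the groups (0.337%, against 0.284% of all exons), namely ENSRNOE00000158147, ENSRNOE00000071774 and ENSRNOE00000352659, the last 2 named after their values were seen. All 3 were higher in TBI, and the direction was not counted over all exons tested. They reached the level of the filter (13.7 CPM, needed in 5 libraries) in the 5 TBI libraries and in 1, 1 and 3 sham libraries. The 3 members thus passed only with the TBI libraries, and their lack of overlap is a description.

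The smallest p in the thalamus belonged to ENSRNOE00000293057. It had 11.7, 10.5, 9.3, 19.5 and 21.2 CPM in sham rats 1 to 5 and 36.1, 35.0, 22.8, 19.9 and 22.4 CPM in TBI rats 6 to 10, a log2 fold change of 0.90 (SE 0.325, adjusted p 0.997 in edgeR), and the groups overlapped at rats 5 and 9. ENSRNOE00000312267 had 25.1, 31.6, 33.1, 24.8 and 7.1 CPM in sham and 15.1, 10.0, 14.3, 12.4 and 7.9 CPM in TBI, a log2 fold change of −1.01 (SE 0.366, adjusted p 0.997 in edgeR). Here the sham libraries of rats 1 to 4 lay above all TBI libraries and that of rat 5 below them. ENSRNOE00000158147 had 15.05, 8.8, 5.3, 8.8 and 13.0 CPM in sham and 25.1, 18.3, 15.7, 16.2 and 17.1 CPM in TBI, a log2 fold change of 0.85 (SE 0.308, adjusted p 0.997 in edgeR). In the hippocampus the log2 fold changes of these 3 exons were 0.07, −0.02 and 0.05.

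**Figure D5:**
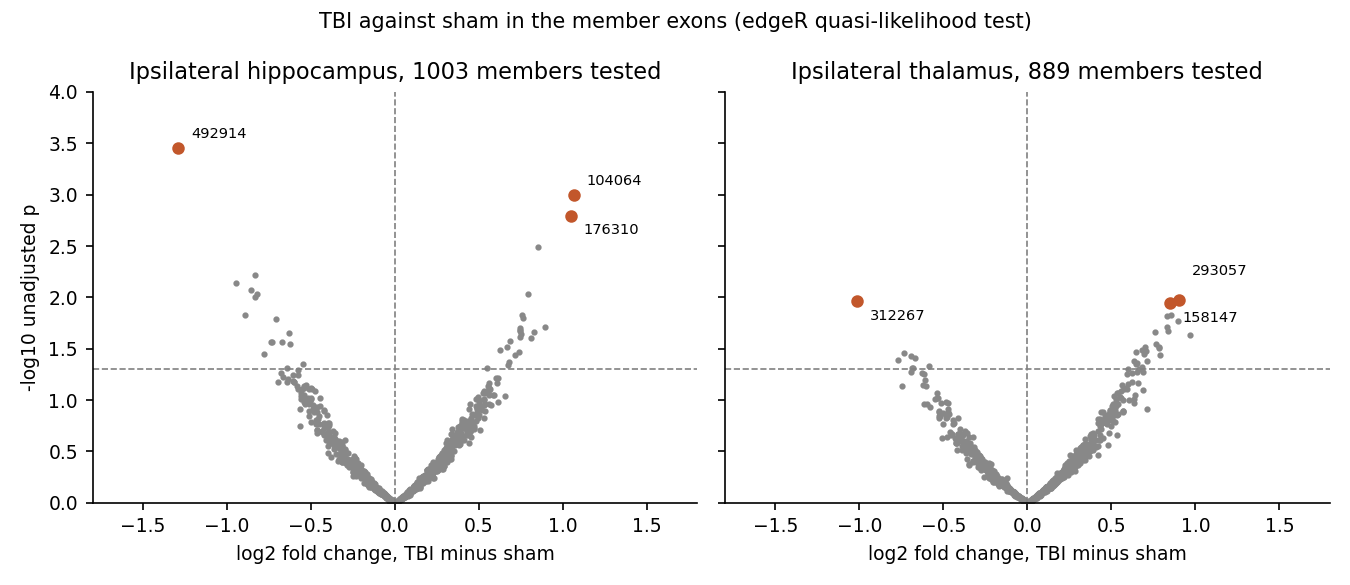
Log2 fold change of TBI against sham (x axis) and −log10 of the unadjusted p of the edgeR quasi-likelihood test (y axis) for each member exon tested, 1003 in the hippocampus on the left and 889 in the thalamus on the right. Each point is an exon, the leading 3 in each panel are orange with the last digits of their identifiers, and the horizontal dashed line marks the unadjusted threshold of 0.05. In the hippocampus 38 points and in the thalamus 34 points lie above that line, and 0 passed after adjustment.

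In the cortex, where the rule asked for low counts, 4 members passed the filter on low counts of the main test (ENSRNOE00000496334, ENSRNOE00000505879, ENSRNOE00000461888 and ENSRNOE00000506323), and 0 had an adjusted or an unadjusted p under 0.05 in edgeR, as had 0% of the 455 distinct exons tested. Their log2 fold changes ranged from −0.68 to −0.02. With every row kept, all 1105 members were tested and 0 were called, and 15 had an unadjusted p under 0.05 in edgeR, all lower in TBI (1.36% of the members, against 1.71% of all exons lower and 2.10% higher). The median log2 fold change of the members was then −0.26, against 0.02 for all exons. DESeq2 also tested all 1105 and called 0, with 3 members higher and 20 lower at an unadjusted p under 0.05 (0.271% and 1.81%, against 0.608% and 0.404% of all exons). Those shares were not taken at like coverage. The 167380 exons tested by DESeq2 needed only 1 cortex count, whereas the members had 28 to 99. The summed member level of the cortex was highest in sham rat 4 and lowest in TBI rat 10, and the part of these libraries in the counts of lower members was not tested. The summed member level was 21073 ± 8600 CPM in the sham and 17463 ± 8378 CPM in the TBI cortex (SD, n = 5 each), and without rats 4 and 6 it was 17502 ± 3687 CPM and 14103 ± 4281 CPM (SD, n = 4 each), so that the groups differed by less than 1 SD.

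The difference of the TBI effect between the hippocampus and the thalamus was tested as an interaction over both tissues. All 1105 members were tested, and 0 had an adjusted p under 0.05 in edgeR, as had 0% of the 9619 exons tested. Without adjustment, 34 members had p under 0.05, which is 3.08% against 3.87% of all exons. The log2 fold change was more positive in the thalamus for 22 of them (1.99%, against 2.17% of all exons) and more negative for 12 (1.09%, against 1.69%). The median member had 13 counts in the median hippocampus library and 10 in the median thalamus library.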

How the data were processed

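MBD-seq libraries of 3 tissues from 10 rats were analysed. Per the paper's methods and the submitters' processing notes, the authors mapped reads to Rnor_5.0 by STAR, splicing switched off, and counted them by exon, gene body and promoter. The deposited values were whole-number counts without normalization, and 0 columns were left unmapped. Members and lists were chosen with earlier results of these data known.

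Repeated rows and rows with equal counts in every library were kept once for the description. Tests used every row of an exon table: edgeR 4.0.16 with its filterByExpr step (a count of at least 10 and a total of at least 15), full table totals with TMM scaling, the quasi-likelihood F test and Benjamini-Hochberg adjustment over all rows, with a threshold of 0.05. Numbers of exons tested refer to exons with distinct counts. The model was also run on simulated counts of hippocampus exons that passed the filter, which does not cover the cortex and thalamus tests. Alternatives used DESeq2 1.42.0 and limma 3.58.1, other scalings and filters, and each rat left out; 5 alternatives were added after the data were seen. Tissue differences were not tested because the rule used them.

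Named exons were the 6 with the highest mean level in hippocampus and thalamus, the 3 with the smallest p in each of these tissues, the 3 at either end of the cortex and of the thalamus to hippocampus ratio, and exons beside each threshold. No member had over 50% of a tissue's counts in 1 library. Gene lists could not be used without symbols. The rat numbers of the labels pair tissues of 1 animal, and the correlation of deviations between hippocampus and thalamus of the same rat was −0.25 to 0.14 (median −0.01, over 0.1 in 1 of 10 rats). Replicate libraries differed by more than sampling noise (lowest chi-square per degree of freedom 1.44 over 60 pairs). The labels name a Genome Analyzer for all libraries, whereas the paper's methods, by reference to its RNA sequencing, give a HiSeq for the thalamus, so that instrument and tissue cannot be told apart. R 4.3.3, Python 3.11.15 and pandas 2.3.3 were used. The 5 libraries of a group and tissue come from separate rats.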

Additional observations from a re-analysis of the deposited data

Results flagged for a closer look

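Groups of 5 libraries were searched for a library whose gap to the nearest other exceeded 0.71 of the range of the group, for 4 summed measures and 6 named exons. Of 36 groups, 7 held such a library, where chance gives about 1 in 20 groups (1.8 of 36) for independent and normally spread values. The 4 measures shared their libraries, and the share of members with no count was often 0%, so that this number is only a rough guide. In the thalamus TBI group all libraries but that of rat 7 were tied at 0%, and any other value there had to stand apart.

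The summed member level of thalamus TBI rat 6 was 26892 CPM, and the other 4 TBI libraries lay between 14248 and 17674 CPM. The share of members with no count was 25.5% in cortex TBI rat 10 against 0.0905% to 7.06% in the others, 11.7% in cortex sham rat 1 against 0% to 2.62%, 1.72% in hippocampus sham rat 5 against 0% to 0.181%, and 0.271% in thalamus TBI rat 7 against 0%. Cortex rats 10 and 1 also had exon totals of 236277 and 232485 counts, the lowest of the cortex. In hippocampus sham rat 2, ENSRNOE00000176310 stood at 16.9 CPM, below the 21.6 to 23.5 CPM of its group. ENSRNOE00000158147 stood at 25.1 CPM in thalamus TBI rat 6 against 15.7 to 18.3 CPM.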

How the results depend on the processing

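The number of members called for TBI was 0 in all alternatives in the cortex (18), thalamus (17) and interaction (13), and 0 in 16 of 18 in the hippocampus. There, 1 member (ENSRNOE00000492914) was called without sham rat 5, so that leaving out single rats gave 0 to 1 calls, and without rats 5 and 9 together 1 was called (log2 fold change −1.53, adjusted p 0.0421 in edgeR). Members with an unadjusted p under 0.05 numbered 6 to 61 in the hippocampus (0.568% to 6.08%, against 0.939% to 5.70% of all exons), 7 to 46 in the thalamus (0.923% to 4.17%, against 1.15% to 3.95%) and 21 to 42 in the interaction (1.90% to 3.801%, against 2.74% to 4.44%). In the cortex they numbered 0 to 23 (0% to 20%, against 0% to 6.97% of all exons), with 3 to 1105 members tested. With rat number as replicate block, the interaction called 0 members, and 26 had an unadjusted p under 0.05 (2.35%, against 3.32% of all exons). No direction of the 6 exons named for their p reversed where they were tested, which was in 16 of 18 alternatives for ENSRNOE00000492914, 15 of 18 for ENSRNOE00000176310 and all for the others. These exons were picked for small p in the same libraries, so a reversal was unlikely from the start, and the kept direction is a description.

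The number of members was 11763 at a threshold of 50 counts, 84 at 200, 12 with sums scaled to the cortex exon total and 143 to its promoter total. It was 590 to 1408 without 1 rat, 651 without 6 libraries found apart before (cortex 4, 6 and 10, hippocampus 5 and 9, thalamus 6), 531 chosen in sham and 1985 in TBI.

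The log2 ratio of cortex to hippocampus moved to −1.81 on the promoter scale without cortex rats 4 and 6 and hippocampus rat 5, and to −1.68 on that scale without the 6 libraries. That of cortex to thalamus reversed to −0.81 and −0.54 there, to −0.31 on the promoter scale alone and to −0.20 without the 3 libraries alone, and ranged from −0.038 (without rat 4) to 0.19 without 1 rat. Low counts limited the cortex most, where the filter removed 1101 members.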

Other observations

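The counts of ENSRNOE00000229519, one of the highest members, were even numbers in all 20 cortex and hippocampus libraries, for example 22, 6, 20, 18 and 12 in the hippocampus of sham rats 1 to 5. In the thalamus they were odd and even (31, 13, 44, 22 and 55 in sham rats 1 to 5). Among 61309 distinct exons with a count in at least 14 of those 20 libraries, it was the only 1 with this pattern, which was noticed after the values were seen. Its cortex counts were 0 in rats 1 and 7 and highest, at 28, in rat 6.

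In the hippocampus-only exons, those with 100 or more counts in the hippocampus and under 100 in the other tissues, the same libraries stood apart. Their summed level was 38789 CPM in cortex rat 4, within the 35175 to 49806 CPM of the hippocampus libraries other than rat 5. Cortex rat 6 had 32929 CPM, below these, and hippocampus rat 5 had 23212 CPM.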
